A study of Caenorhabditis elegans with 10 samples.

Results

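The genes described here encode the FMRFamide-like peptides (flp) and the neuropeptide-like proteins (nlp) of the nematode Caenorhabditis elegans. Members were chosen by annotation: a probe set had to carry a single gene symbol made of flp or nlp and a number. The genes nlp-24, nlp-25 and nlp-27 to nlp-34 were left out, and where a gene had several probe sets the brightest on average was read. This gave 74 genes, 25 flp and 49 nlp, of 17118 genes read from 1 probe set each. The rule itself uses no measured change.

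The arrays held total RNA of adults mutant for mek-1 or mlk-1, which encode MAP kinase kinase and MAP kinase kinase kinase enzymes that act one after the other in a stress pathway of the JNK type. No allele is given in the labels, which state only the gene that is mutated, and no wild type was analysed here, so every comparison is between or within mutants. Animals were moved on adult day 2 to plates that carried OP50-1 bacteria (fed) or no bacteria (fasted), and were collected 2 days later, on adult day 4. In mek-1 each food group had 3 arrays and in mlk-1 each had 2, all of 1 colour. The labels do not say that replicates came from separate cultures, so p-values measure the spread between these samples only.

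Neuropeptides are cut from larger precursors inside dense-core vesicles by the proprotein convertase EGL-3 and trimmed by the carboxypeptidase EGL-21. Their release depends on the vesicle priming factor UNC-31, and most act on G protein-coupled receptors of other cells. The flp genes encode peptides related to FMRFamide and the nlp genes a mixed group of other peptides, and in worms they set states such as sleep, feeding, locomotion and egg laying. Most are made in neurons, and NLP-40 is a known exception that is released by the intestine. Levels are log2 of the deposited intensity plus 16, in which the lowest deposited values read as 5. Changes are log2 differences with the standard error (SE) of limma, and adjusted p is the Benjamini-Hochberg value over 22548 probe sets, called at 0.05.

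The arrays were alike in overall brightness, with median intensities of 70.6 to 75.1, and the lowest correlation between arrays of a group was 0.979. The mek-1 probe set read 7.08 to 7.28 in fed and 6.37 to 6.47 in fasted mek-1 mutants, against 10.17 to 10.45 in mlk-1 mutants, in the direction its label gives. The mlk-1 probe set read 7.17 to 7.73 in mek-1 mutants and 7.52 to 7.95 in mlk-1 mutants, so it could not check the mlk-1 label. Both mek-1 arrays numbered 3 stood apart on the second principal component, at -30.1 and -30.9. Of the peptide genes, flp-23, nlp-2, nlp-23, nlp-45, nlp-53 and nlp-90 lay among the dimmest 30% of probe sets, under a mean level of 5.73, where changes are compressed. All 74 were tested.

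In the mean fasting effect, which weights both strains equally, no flp gene passed the test and 6 of 49 nlp genes did. Transcripts of nlp-51, nlp-99, nlp-35 and nlp-52 rose, and those of nlp-40 and nlp-36 fell. Over all 17118 genes 8.23% passed the test, 4.21% upward and 4.03% downward. The nlp share lay above that background and the flp share under it, on small counts. The nlp count was 3 of 49 without mek-1 fasted array 1, and 3 of 38 without probe sets of shared design. Such fits have all-gene shares of their own, which are not given here. Without the adjustment, limma gave p under 0.05 for 7 flp genes, all higher on fasting, and for 16 nlp genes, 11 higher and 5 lower, where 22.8% of all genes did so.

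**Figure D1:**
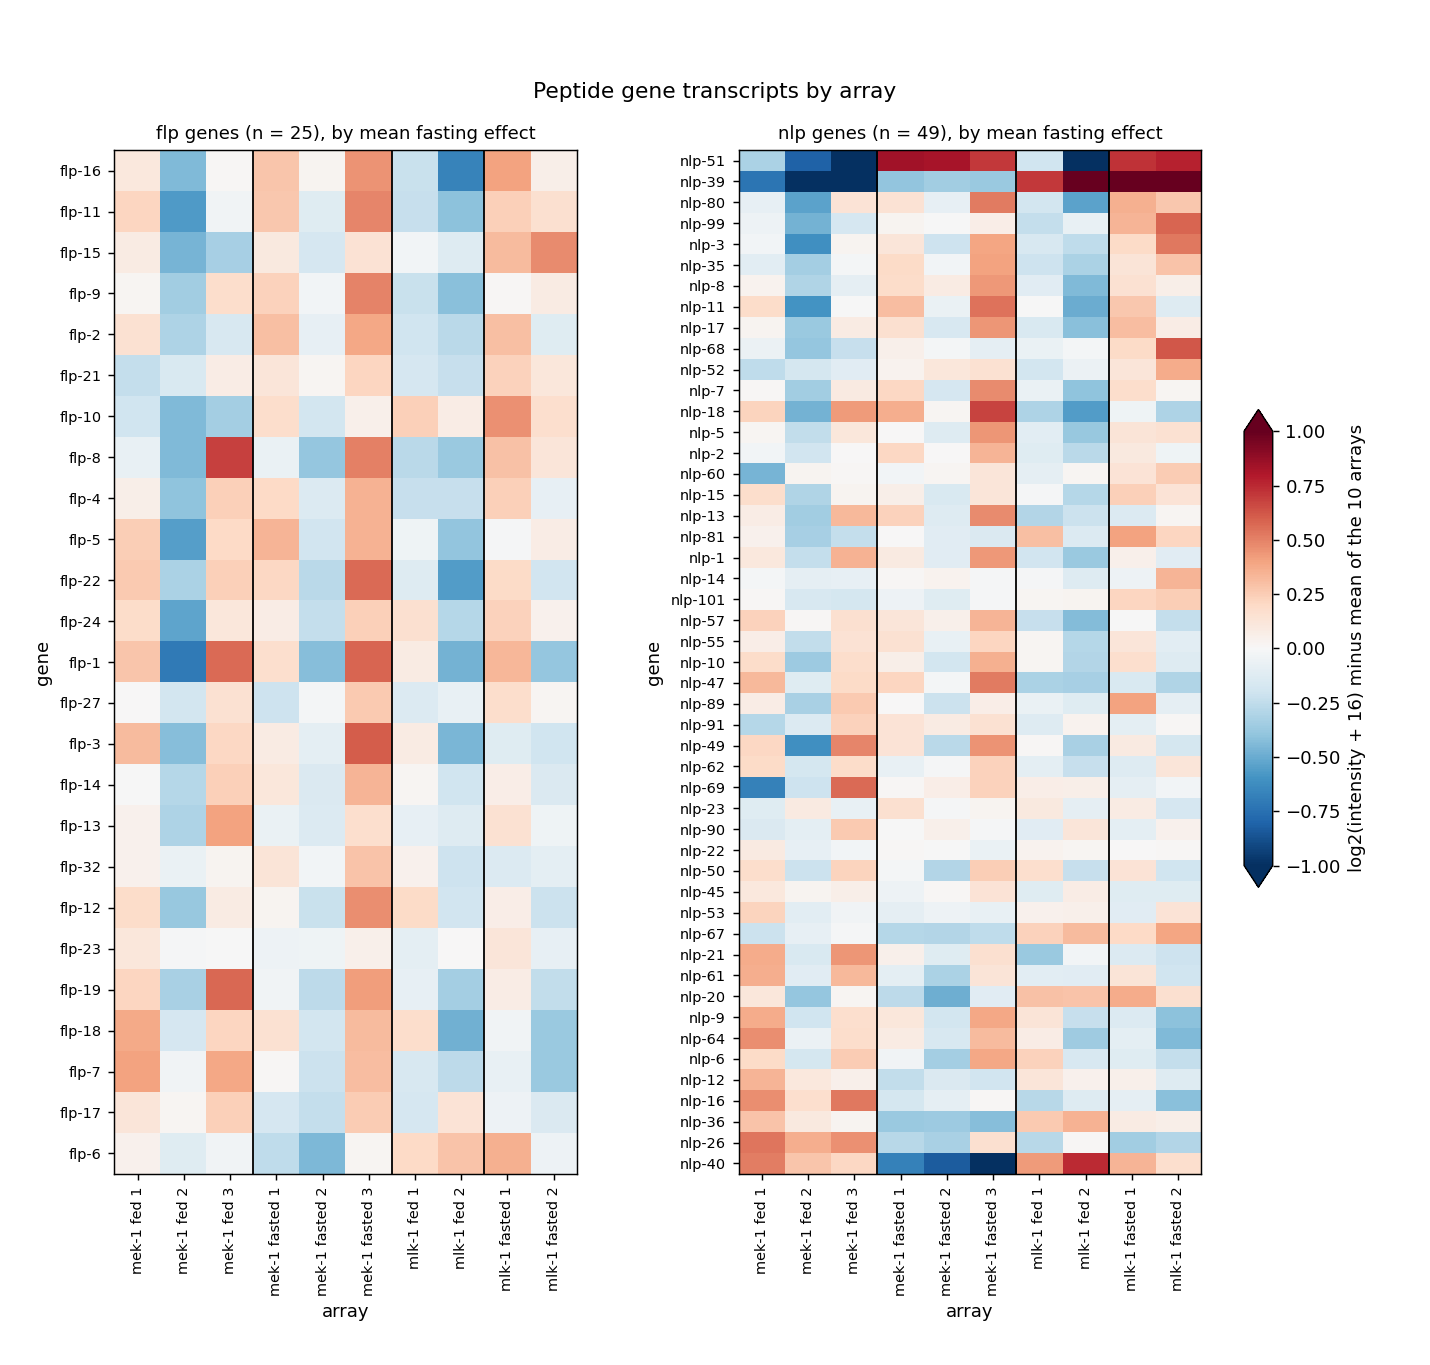
Each line is 1 peptide gene and each column 1 array, with flp genes at left and nlp genes at right, ordered from the highest to the lowest mean fasting effect. Colour is the log2(intensity + 16) level minus the gene's mean over the 10 arrays, cut at 1 in either direction, and many flp lines are paler or bluer on the arrays numbered 2 than on those numbered 1 of the same group.

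The estimates leaned upward in both families. Of the flp genes 21 of 25 had an estimate above 0, with a median of 0.12 and a range of -0.14 to 0.52. Of the nlp genes 32 of 49 did, with a median of 0.12. Over all genes 61.9% were above 0 and the median was 0.04. The flp median was 0.04 without mek-1 fed array 2, 0.05 without mek-1 fasted array 3, 0.04 without mlk-1 fed array 2 and 0.07 without mlk-1 fasted array 1. It was 0.20 without mek-1 fed array 3, 0.22 without mek-1 fasted array 2, 0.24 without mlk-1 fed array 1 and 0.20 without mlk-1 fasted array 2. The nlp median fell to 0.06 without mek-1 fed array 2, 0.07 without mlk-1 fed array 2 and 0.07 without mlk-1 fasted array 1.

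**Figure D2:**
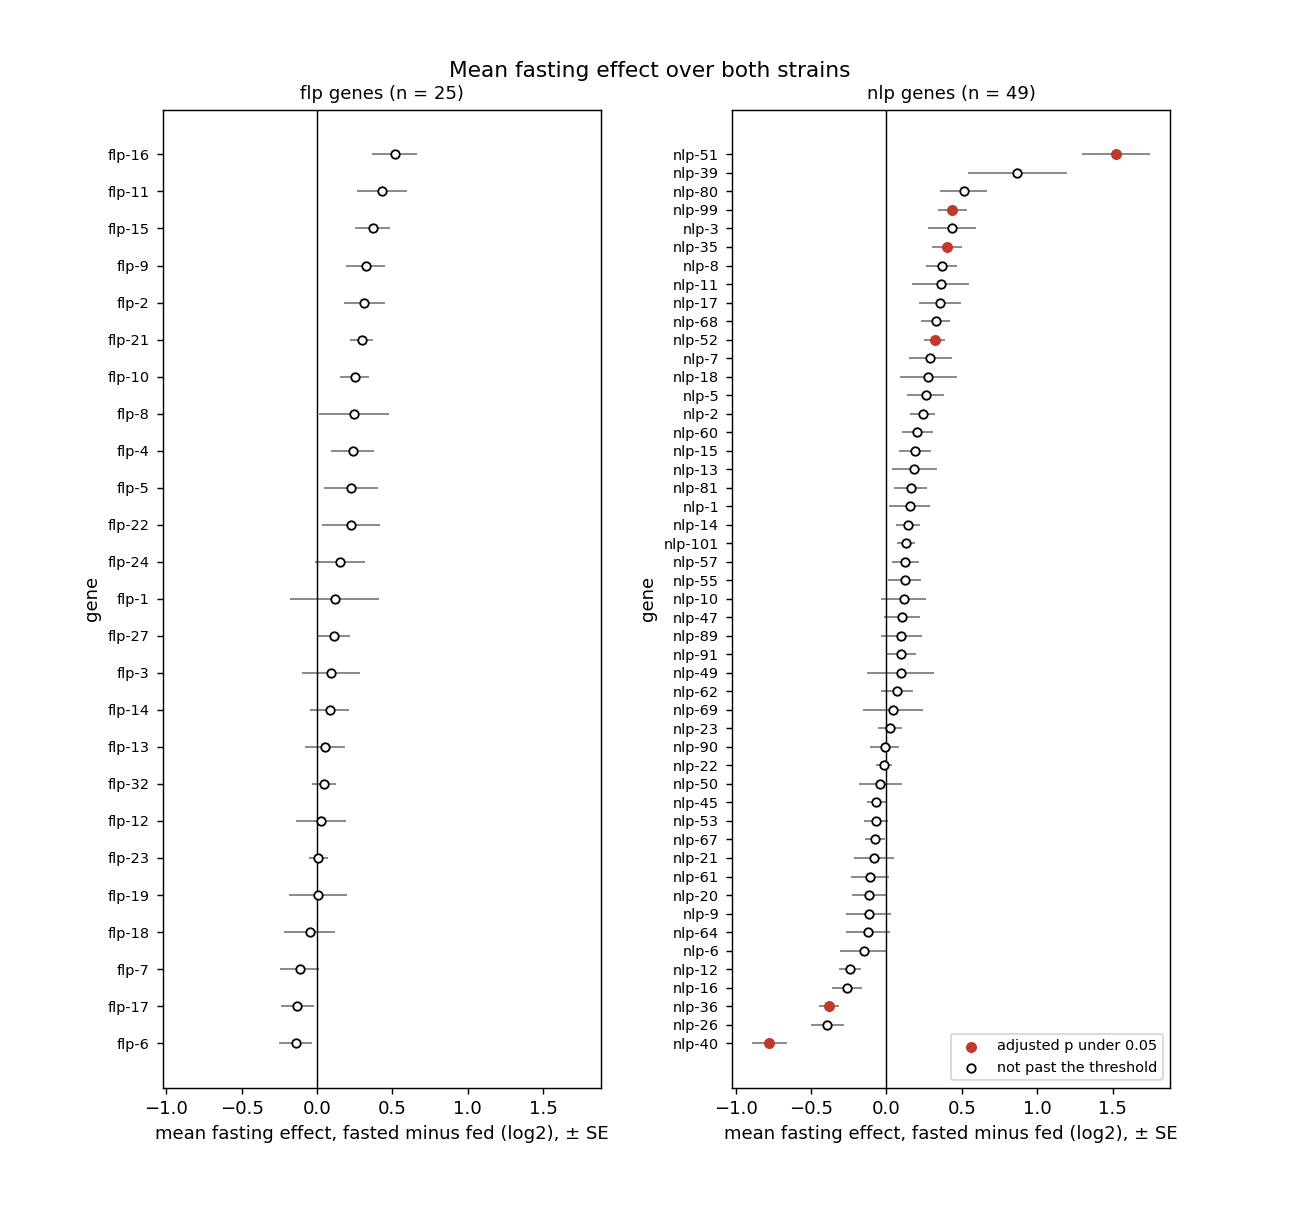
Mean fasting effect of each flp (left) and nlp (right) gene on the log2 scale, fasted minus fed, with bars of 1 SE. Red points mark adjusted p under 0.05: none of the flp genes and 6 nlp genes, from nlp-40 at -0.78 to nlp-51 at 1.52.

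The replicate numbers of the labels were taken to pair fed and fasted arrays within a strain. This was inferred from these same data, in which arrays with the same number deviated from their group means together. With the replicate number as a block, given the same effect in both strains, 8 of 25 flp genes rose on fasting and none fell. The 8 were flp-2, flp-8, flp-9, flp-10, flp-11, flp-15, flp-16 and flp-21. Of the nlp genes 13 rose and 4 fell with the block. Its background was 12.5% of all genes upward and 7.54% downward, against 32% of flp genes and 26.5% of nlp genes upward and 8.16% of nlp genes downward. In all 5 pairs of the same strain and number the fasted array was the higher in 10 of 25 flp genes and in 16 of 49 nlp genes, 40% and 32.7%, against 20.3% of all genes. It was the lower in all 5 pairs for no flp gene and for 4 nlp genes, 8.16%, against 9.66% of all genes.

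NLP-40 is a peptide secreted by the intestine that drives the enteric muscle step of the defecation rhythm through the receptor AEX-2 on GABAergic neurons. The nlp-40 transcript fell most among the 74. Its level was 11.15, 10.91 and 10.84 on the fed and 9.96, 9.80 and 9.47 on the fasted mek-1 arrays. In mlk-1 it was 11.07 and 11.38 on the fed and 10.98 and 10.81 on the fasted arrays. Fed and fasted arrays did not overlap within either strain. With so few arrays that held, downward, for 9.36% of all genes in mek-1 and 16.5% in mlk-1. Upward the shares were 12.6% in mek-1 and 29.4% in mlk-1. The nlp-40 drop was wide in mek-1 and narrow in mlk-1. The mean effect was -0.78 ± 0.12 (adjusted p = 0.00514), or 0.584 times the fed level. In mek-1 it was -1.22 ± 0.15 (adjusted p = 0.00226), 0.429 times the fed level. In mlk-1 it was -0.33 ± 0.18 and did not pass the test (adjusted p = 0.546).

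Other intestinal transcripts also fell on fasting. Of 9 intestine markers 6 fell in the mean fasting effect: vha-6, asp-1, pgp-1, ifb-2, act-5 and cpr-6, with a median of -1.21 over the 9. The summed level of the markers, as log2 of their summed intensity, was 13.73 to 14.06 in fed and 12.16 to 12.57 in fasted mek-1 mutants. It was 13.997 to 14.27 in fed and 12.76 to 12.91 in fasted mlk-1 mutants, and no marker lay under the low-level cutoff. The summed level thus dropped in both strains, while the nlp-40 effect in mlk-1 was -0.33 and did not pass the test. Transcripts of aex-5, the convertase that processes NLP-40 in the intestine, fell by 0.63 ± 0.09 (adjusted p = 0.0039). The part of the intestinal markers in the nlp-40 result was not tested, and in RNA of whole animals fewer cells of a type and less RNA per cell cannot be told apart. The receptor gene aex-2 did not pass the test in the mean fasting effect.

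Transcripts of nlp-36 fell as well. Fed mek-1 arrays read 10.21, 10.03 and 9.96 and fasted ones 9.56, 9.56 and 9.50. Fed mlk-1 arrays read 10.19 and 10.28 and fasted ones 10.01 and 9.99. As for nlp-40, the food groups were separate in both strains, with the smaller gap in mlk-1. Its mean effect was -0.38 ± 0.06 (adjusted p = 0.00854) and the effect in mek-1 -0.52 ± 0.08 (adjusted p = 0.00804). The probe sets of nlp-36, nlp-40 and nlp-51 bear a suffix of designs that can match more than 1 transcript. Such probe sets served 19 of the 74 genes, among them flp-1, flp-6, flp-9, flp-11, flp-15, flp-18, flp-21 and nlp-12.

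The largest rise was that of nlp-51. Fed arrays read 8.54, 8.04 and 7.47 in mek-1 and 8.66 and 7.71 in mlk-1. Fasted arrays read 9.69, 9.68 and 9.56 in mek-1 and 9.58 and 9.63 in mlk-1. Every fasted array lay above every fed one, and the fed arrays were the more scattered. The mean effect was 1.52 ± 0.23 (adjusted p = 0.00483), or 2.87-fold. In mek-1 it was 1.63 ± 0.29 (adjusted p = 0.0145), a call that was lost without mek-1 fasted array 1 (adjusted p = 0.0663) or mek-1 fasted array 2 (adjusted p = 0.0578). In mlk-1 the estimate was 1.42 ± 0.35 (adjusted p = 0.112), and with the replicate block nlp-51 passed the test in that strain too.

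**Figure D3:**
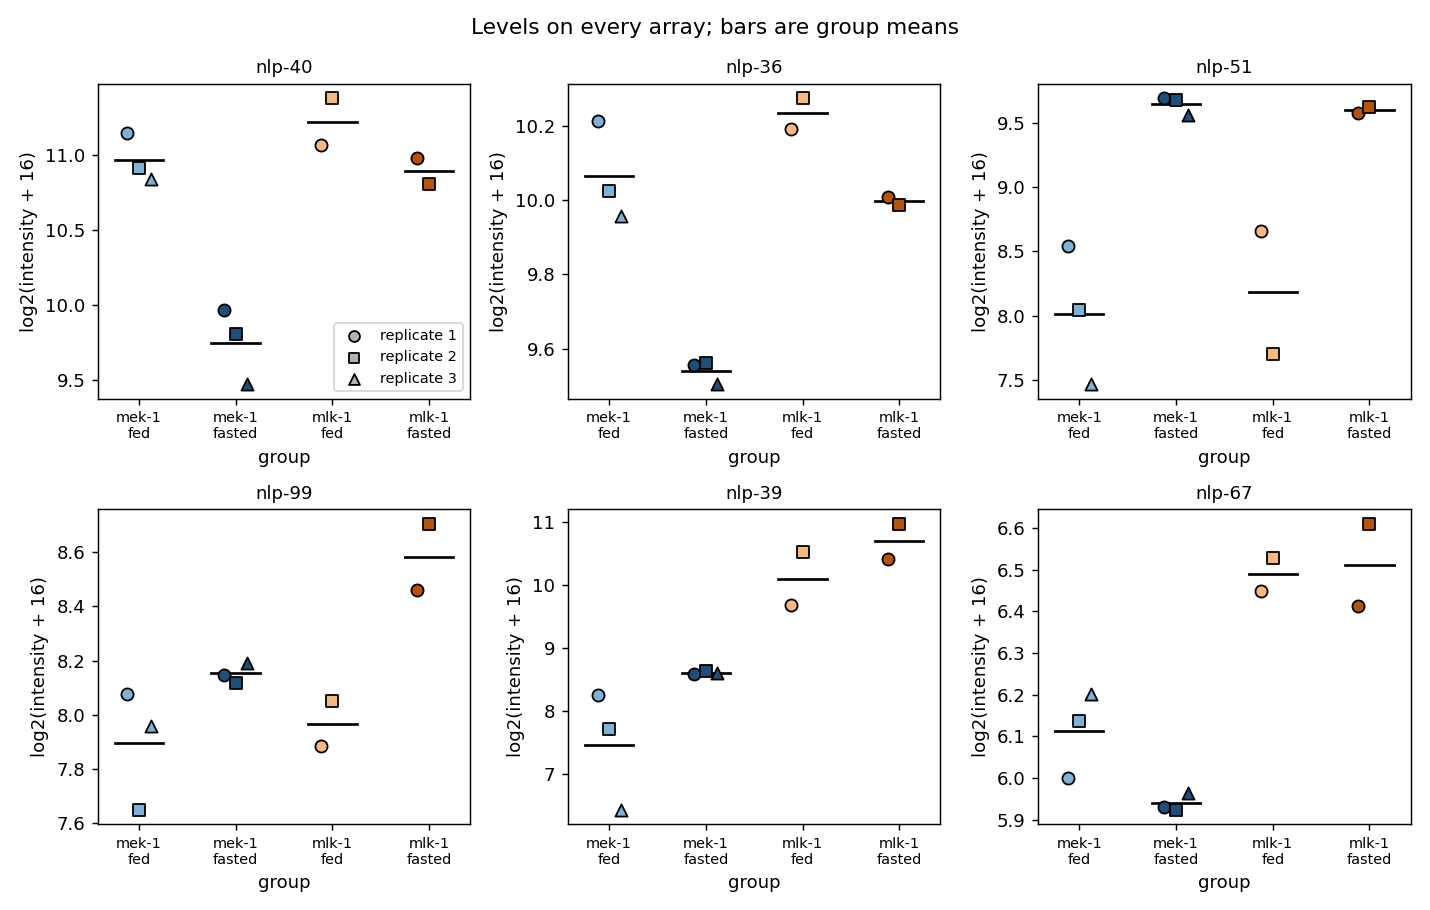
Level of 6 nlp genes as log2(intensity + 16) on each of the 10 arrays, by group, with point shape for the replicate number and a bar at the group mean. For nlp-51 and nlp-99 every fasted array was above every fed one, and for nlp-39 and nlp-67 every mlk-1 array was above every mek-1 one.

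The rises of nlp-99, nlp-35 and nlp-52 were smaller. For nlp-99 the fed arrays read 8.07, 7.65 and 7.96 in mek-1 and 7.88 and 8.05 in mlk-1, and the fasted arrays 8.15, 8.12 and 8.19 in mek-1 and 8.46 and 8.71 in mlk-1. The food groups were separate over all 10 arrays, by a narrow margin in mek-1, and the mean effect was 0.44 ± 0.09 (adjusted p = 0.0256). A second nlp-99 probe set gave 0.60 ± 0.14 (adjusted p = 0.0336). The call at the first probe set was lost without any 1 of mek-1 fasted arrays 1 and 2, mlk-1 fed arrays 1 and 2 or mlk-1 fasted array 2, with adjusted p of 0.0545 to 0.114.

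For nlp-35 the fed arrays read 6.26, 6.02 and 6.35 in mek-1 and 6.16 and 6.05 in mlk-1, and the fasted arrays 6.55, 6.34 and 6.77 in mek-1 and 6.50 and 6.65 in mlk-1. The groups were separate within mlk-1 and overlapped in mek-1, and the mean effect was 0.40 ± 0.10 (adjusted p = 0.0418). That call was lost without any 1 array other than mek-1 fed array 3 and mek-1 fasted array 2, with adjusted p of 0.0535 to 0.157. For nlp-52 the fed arrays read 5.81, 5.89 and 5.96 in mek-1 and 5.89 and 6.01 in mlk-1, and the fasted arrays 6.10, 6.19 and 6.22 in mek-1 and 6.19 and 6.44 in mlk-1. Every fasted array was above every fed one, at levels close to the low-level cutoff, and the mean effect was 0.32 ± 0.07 (adjusted p = 0.0258). It was lost without any 1 of mek-1 fed array 1, mek-1 fasted arrays 1 and 2, mlk-1 fed arrays 1 and 2 or mlk-1 fasted array 2, with adjusted p of 0.0510 to 0.107. Taking all fed against all fasted arrays, nlp-8 was the other gene with no overlap. Thus 4 of 49 nlp genes (8.16%) and no flp gene were separate and higher on fasting, against 3.82% of all genes. None of the 74 peptide genes was separate and lower, against 3.56% of all genes.

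A further set of nlp genes had large estimates that did not pass the test in the mean effect. NLP-12 is a peptide related to cholecystokinin that the stretch-sensing neuron DVA releases. The nlp-12 transcript read 7.65, 7.41 and 7.36 on fed and 7.06, 7.16 and 7.11 on fasted mek-1 arrays. In mlk-1 it read 7.43 and 7.35 fed and 7.36 and 7.18 fasted. It was lower on every fasted mek-1 array and overlapped in mlk-1, with a mean effect of -0.24 ± 0.07 (adjusted p = 0.0868, and 0.0373 with the replicate block).

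The levels of nlp-26 were 6.58, 6.40 and 6.50 in fed and 5.76, 5.72 and 6.20 in fasted mek-1 mutants, and 5.76 and 6.05 in fed and 5.70 and 5.75 in fasted mlk-1 mutants. It was lower on each fasted array than on the fed array of the same strain and number, with a mean effect of -0.39 ± 0.11 (adjusted p = 0.0605, and 0.0216 with the block). In mek-1 the effect was -0.60 ± 0.14 (adjusted p = 0.0432). That call was lost without any 1 array other than mek-1 fasted array 3, with adjusted p of 0.0510 to 0.175.

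For nlp-16, fed mek-1 arrays read 6.83, 6.54 and 6.90 and fasted ones 6.20, 6.28 and 6.38, while mlk-1 arrays read 6.09 and 6.25 fed and 6.28 and 5.95 fasted. The groups were separate in mek-1 and overlapped in mlk-1, and the mean effect was -0.26 ± 0.10 (adjusted p = 0.152).

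Upward, nlp-80 read 8.25, 7.80 and 8.47 in fed and 8.47, 8.25 and 8.85 in fasted mek-1 mutants, and 8.15 and 7.80 in fed and 8.68 and 8.60 in fasted mlk-1 mutants. Every fasted array was above its numbered fed partner, while the mek-1 groups overlapped. Over both strains it averaged 0.51 ± 0.16 (adjusted p = 0.0868, and 0.0015 with the block). The mean effect of nlp-39 was 0.87 ± 0.33 (adjusted p = 0.156). Its fed mek-1 arrays ranged from 6.42 to 8.24, the widest spread of the levels plotted.

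Among the flp genes the largest estimate was that of flp-16. Fed arrays read 8.13, 7.58 and 8.04 in mek-1 and 7.80 and 7.36 in mlk-1, and fasted arrays 8.30, 8.05 and 8.47 in mek-1 and 8.43 and 8.08 in mlk-1. The food groups overlapped in mek-1 and were separate in mlk-1, and the fasted array was the higher in each numbered pair, by 0.17, 0.47 and 0.44 in mek-1 and 0.62 and 0.72 in mlk-1. The mean effect was 0.52 ± 0.15 (adjusted p = 0.069), and with the block the SE was 0.06 and the adjusted p 0.0011.

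FLP-11 is the sleep-promoting peptide of the neuron RIS. Its transcripts read 8.05, 7.27 and 7.80 in fed and 8.11, 7.72 and 8.32 in fasted mek-1 mutants, and 7.60 and 7.43 in fed and 8.08 and 7.99 in fasted mlk-1 mutants. The pairs differed by 0.06, 0.45 and 0.52 in mek-1 and 0.47 and 0.57 in mlk-1, all upward, although the mek-1 groups overlapped. The strain-averaged effect was 0.43 ± 0.16 (adjusted p = 0.157, and 0.0228 with the block).

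FLP-21 is a ligand of NPR-1, the receptor that governs aggregation on food. The flp-21 transcript read 5.55, 5.63 and 5.86 in fed and 5.90, 5.81 and 6.0 in fasted mek-1 mutants. Its mlk-1 arrays read 5.62 and 5.55 fed and 6.02 and 5.90 fasted. Apart from mek-1 fed array 3 the fed arrays lay under all fasted ones. The mean effect was 0.30 ± 0.08 (adjusted p = 0.0507, and 0.0083 with the block), next to the threshold, and the adjusted p crossed it in 12 of 23 other settings.

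For flp-15, fed arrays read 7.84, 7.30 and 7.42 in mek-1 and 7.73 and 7.63 in mlk-1, and fasted arrays 7.86, 7.59 and 7.91 in mek-1 and 8.08 and 8.23 in mlk-1. The mek-1 groups overlapped and the mlk-1 groups did not, where 29.4% of all genes were separate and higher on fasting in mlk-1. Averaged over the strains, the effect was 0.37 ± 0.12 (adjusted p = 0.0904, and 0.0391 with the block), while its other probe sets gave 0.16 and 0.04. For flp-9, fed arrays read 8.08, 7.71 and 8.23 in mek-1 and 7.84 and 7.64 in mlk-1, and fasted arrays 8.28, 8.03 and 8.55 in mek-1 and 8.07 and 8.14 in mlk-1. It was higher in all 5 pairs and overlapped in mek-1, with a mean effect of 0.32 ± 0.13 (adjusted p = 0.177, and 0.0153 with the block). The gene of the arousal peptide FLP-2 had an estimate of 0.32 ± 0.13 (adjusted p = 0.202, and 0.0329 with the block). Its other probe set gave 0.29.

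The largest difference of fasting effects between strains among flp genes was that of flp-8. In mek-1 its arrays read 7.60, 7.23 and 8.35 fed and 7.60, 7.28 and 8.17 fasted, so fed and fasted covered the same range. In mlk-1 the arrays read 7.40 and 7.29 fed and 7.96 and 7.79 fasted, with no overlap. In that strain 29.4% of all genes were separate in this direction. The mean effect was 0.24 ± 0.23 (adjusted p = 0.617, and 0.0324 with the block), and the effect was 0.53 in mlk-1 and -0.04 in mek-1. The difference between the strains was -0.57 ± 0.46 and did not pass the test, and it was -0.26 without mek-1 fed array 3 and -0.37 without mek-1 fasted array 2. The mean effect was 0.12 without mek-1 fed array 2, 0.40 without mek-1 fed array 3 and 0.12 without mek-1 fasted array 3. A second flp-8 probe set gave a mean effect of 0.02.

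The lower end of the flp genes held small estimates, none past the test. FLP-6 is made by the thermosensory neuron AFD. The flp-6 transcript read 8.0, 7.83 and 7.91 in fed and 7.70, 7.50 and 7.97 in fasted mek-1 mutants. Its mlk-1 arrays read 8.15 and 8.24 fed and 8.30 and 7.90 fasted. The groups overlapped, with a mean effect of -0.14 ± 0.11 (adjusted p = 0.535). FLP-17 is made by the BAG sensory neurons. The flp-17 transcript read 7.13, 7.03 and 7.26 in fed and 6.85, 6.78 and 7.27 in fasted mek-1 mutants. On the mlk-1 arrays it read 6.85 and 7.15 fed and 6.97 and 6.87 fasted. Its groups overlapped too, with a mean effect of -0.13 ± 0.11.

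FLP-7 is a tachykinin-like peptide that signals from neurons to the gut in fat loss. The flp-7 transcript read 7.95, 7.50 and 7.93 in fed and 7.56, 7.33 and 7.85 in fasted mek-1 mutants. In mlk-1 it read 7.38 and 7.28 fed and 7.47 and 7.17 fasted, and its mean effect was -0.11 ± 0.13. FLP-18 is another NPR-1 ligand. Transcripts of flp-18 read 8.42, 7.87 and 8.25 in fed and 8.19, 7.86 and 8.35 in fasted mek-1 mutants. On the mlk-1 arrays they read 8.22 and 7.56 fed and 8.01 and 7.67 fasted. Both genes overlapped between food groups in each strain, and for flp-18 the mean effect was -0.05 ± 0.17 (adjusted p = 0.915).

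FLP-1 is a locomotion peptide of the AVK neurons. The flp-1 transcript read 9.76, 8.77 and 10.04 in fed and 9.65, 9.06 and 10.07 in fasted mek-1 mutants. On the mlk-1 arrays it read 9.56 and 9.01 fed and 9.81 and 9.09 fasted. Each array numbered 2 was lower than the others of its group. Its mean effect was 0.12 ± 0.30 (adjusted p = 0.879). FLP-13 is a sleep peptide of the neuron ALA. The flp-13 transcript read 6.66, 6.30 and 7.01 in fed and 6.55, 6.47 and 6.77 in fasted mek-1 mutants. In mlk-1 it read 6.53 and 6.48 fed and 6.76 and 6.57 fasted, and the mean effect was 0.05 ± 0.13 (adjusted p = 0.874). For flp-19 the arrays read 7.74, 7.20 and 8.10 in fed and 7.49, 7.27 and 7.94 in fasted mek-1 mutants, and 7.44 and 7.19 in fed and 7.60 and 7.28 in fasted mlk-1 mutants. It overlapped in both strains, and its mean effect was 0.01 ± 0.19.

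Read by role, none of the 6 sleep peptide genes (flp-11, flp-13, flp-24, nlp-8, nlp-14 and nlp-22) passed the test, against 8.23% of all genes, and their median was 0.15. With the replicate block flp-11 and nlp-8, the latter from the sleep neuron ALA, rose. Of 5 genes for peptides that act on egg laying none passed, with a median of 0.29, and 4 rose with the block, against 12.5% of all genes. These were flp-10, flp-11 and nlp-7, whose peptides inhibit egg laying, and nlp-3, whose peptide stimulates it. The remaining gene, flp-17, whose peptide inhibits egg laying together with FLP-10 through the receptor EGL-6, had an estimate below 0. Of 6 genes linked to feeding or fat (flp-1, flp-7, flp-18, flp-21, nlp-12 and nlp-40) nlp-40 fell, and with the block flp-21 rose and nlp-12 and nlp-40 fell.

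Levels of both families also followed the replicate numbers. Array 1 was above array 2 in all 4 groups for 16 of 25 flp genes (64%) and 22 of 49 nlp genes (44.9%), against 15.3% of all genes. The median difference, array 1 minus array 2, was 0.27 for flp and 0.16 for nlp genes, and near 0 for all genes. Of 11 genes for peptide processing 8 showed the same order. So did 5 of 8 body wall muscle markers, with a median difference of 0.32, and 4 of 9 intestine markers, with 0.13. The order held for 3 of 15 pan-neuronal genes (median difference 0.02) and 3 of 11 dense-core vesicle genes (0.06). It held for 14 of 101 peptide receptor genes (-0.01) and for none of 7 epidermis markers (-0.03). Of 10 germline markers none was above in all 4 groups and 3 were below, against 11.1% of all genes below, and the median difference was -0.16. The part of these tissues in the order of the peptide genes was not tested. With the number as a block the SE of a fasting effect shrank by a median factor of 1.81 for flp, 1.48 for nlp and 1.24 for all genes. What the replicate number stands for is not given in the labels.

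**Figure D4:**
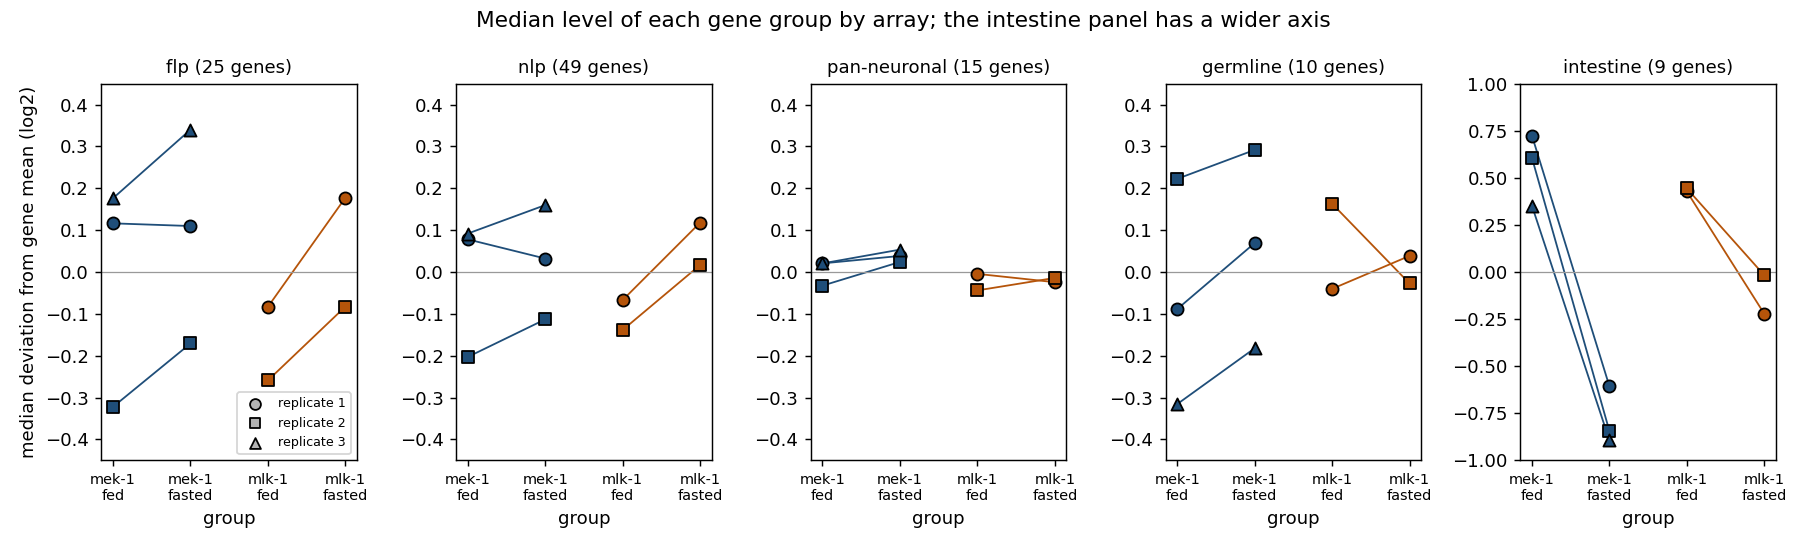
Median deviation from the gene mean on the log2 scale on each array, for flp, nlp, pan-neuronal, germline and intestine genes, with lines joining fed and fasted arrays of the same strain and number. The flp medians ran from -0.32 on mek-1 fed array 2 to 0.34 on mek-1 fasted array 3, and the pan-neuronal medians from -0.04 to 0.05.

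Within the pairs, the median flp change on fasting was above 0 in 4 of 5. It was -0.05 between the mek-1 arrays numbered 1, where 12 of 25 flp genes (48%) were higher, against 56.6% of all genes. In the other pairs 80% to 84% of flp genes were higher, against 54.2% to 61.8% of all genes. The all-gene median was above 0 in each pair, at 0.02 to 0.06. Genes used by most neurons spanned a narrower range of medians over the arrays. Of 15 pan-neuronal genes 3 rose and 1 fell with the block, against 12.5% and 7.54% of all genes. Without the block 2 of the 15 passed, against 8.23% of all genes. They were snb-1, the synaptobrevin of synaptic vesicles, which rose by 0.31 ± 0.07 (adjusted p = 0.0314), and unc-18. The latter, which encodes a syntaxin-binding protein, rose by 0.44 ± 0.09 (adjusted p = 0.0189). The median was 0.05, and no call was left without mlk-1 fed array 1 or mlk-1 fasted array 1, while 1 was left without any other single array except mek-1 fed array 3. Summed pan-neuronal levels were 12.32 to 12.33 in fed and 12.41 to 12.45 in fasted mek-1 mutants, and 12.15 to 12.24 in fed and 12.43 to 12.47 in fasted mlk-1 mutants, with rgef-1 under the low-level cutoff. Summed germline levels were 14.31 to 14.76 in fed and 14.43 to 14.85 in fasted mek-1 mutants, and 14.48 to 14.68 and 14.55 to 14.59 in mlk-1. None of the 10 germline markers passed the test. Body wall muscle markers had a median of -0.70 with 4 of 8 called lower, a count that was 0 without any 1 of mek-1 fed array 1, mek-1 fasted arrays 1 and 2 or any mlk-1 array. The part of these cell types in the flp and nlp estimates was not tested.

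Within mek-1, 4 of 74 peptide genes passed the test on fasting, a share near the 4.88% of all genes: nlp-51 rose, and nlp-26, nlp-36 and nlp-40 fell. Only 2 were left without mek-1 fasted array 1 or mek-1 fasted array 2. The medians were 0.12 for flp and 0.08 for nlp genes. With the replicate block 14 passed, against 14.7% of all genes: flp-10, flp-16, nlp-2, nlp-8, nlp-11, nlp-35, nlp-51, nlp-52 and nlp-80 rose, and nlp-12, nlp-16, nlp-26, nlp-36 and nlp-40 fell.

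Within mlk-1, which had 2 arrays a group, none of the 74 passed the limma test, against 1.47% of all genes. At an unadjusted p under 0.05 there were 12 of 74, of which 11 were higher and 1 lower, against 12.5% of all genes. The lowest adjusted p was that of nlp-99, at 0.62 ± 0.15 (adjusted p = 0.1), and the largest estimate that of nlp-51. With the block 8 rose, against 3.28% of all genes: flp-8, flp-16, flp-21, nlp-17, nlp-35, nlp-51, nlp-52 and nlp-80. Array weights gave 1 call and single arrays left out gave 0 or 1. The medians in mlk-1 were 0.17 for flp and 0.16 for nlp genes.

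No peptide gene passed the test of the difference between the strains' fasting effects, in limma without or with the block and under the other settings tried. The background was 0.0701%, and 0.193% with the block. At an unadjusted p under 0.05 there were 2, against 3.77% of all genes, both with the more negative effect in mek-1: nlp-40, with a difference of -0.89 ± 0.23 (adjusted p = 0.679), and nlp-36, with -0.29. The differences of nlp-16 and nlp-26 were both -0.42, and that of nlp-39 was 0.55 ± 0.66. The nlp-39 difference was 0.95 without mek-1 fed array 1, 0.04 without mek-1 fed array 3, 0.97 without mlk-1 fed array 1, 0.14 without mlk-1 fed array 2, 0.27 without mlk-1 fasted array 1 and 0.83 without mlk-1 fasted array 2. The mlk-1 effect was the higher in 19 of 25 flp genes (76%) and 34 of 49 nlp genes (69.4%), against 51% of all genes. Across genes the effects of the strains, which share no arrays, correlated with Pearson's r of 0.63 over 25 flp, 0.83 over 49 nlp and 0.76 over all genes. Genes are not independent replicates, and the arrays of both strains share the platform and the replicate numbers.

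**Figure D5:**
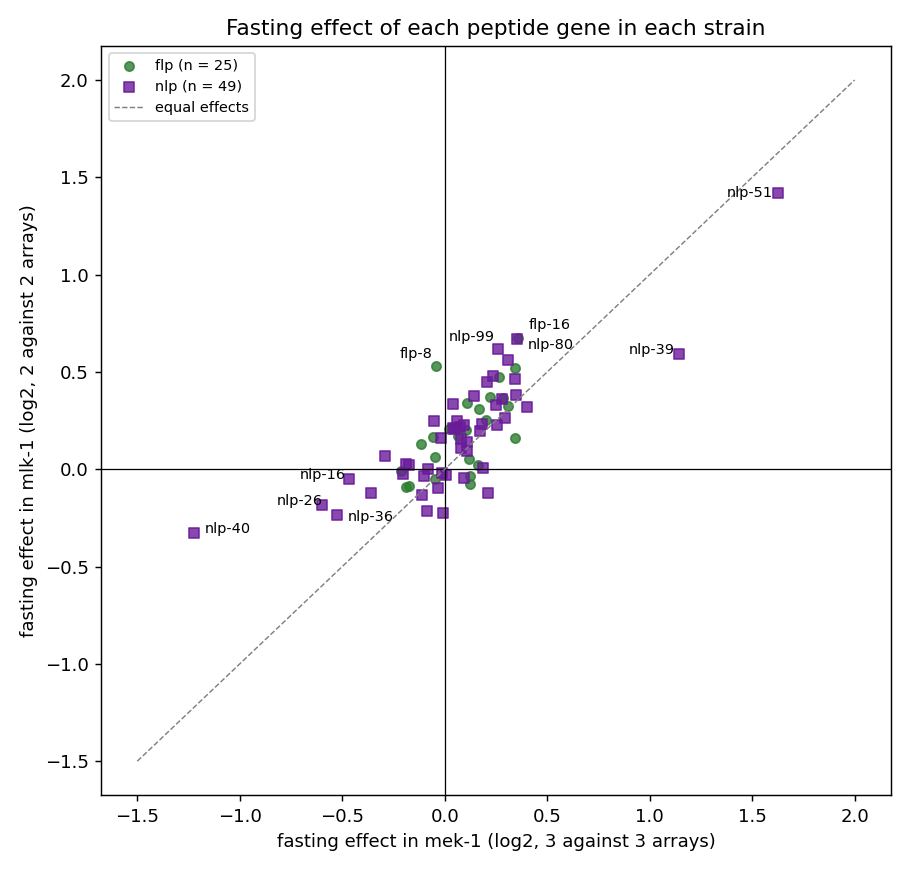
Fasting effect of each peptide gene in mek-1 (horizontal) against that in mlk-1 (vertical), both as log2 fasted minus fed, with a dashed line where they are equal. The nlp-51 effect was high in both strains, at 1.63 and 1.42, and nlp-40 lay far left of 0 in mek-1 at -1.22 and nearer 0 in mlk-1 at -0.33.

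Between the strains, averaged over fed and fasted animals, 4 of 74 peptide genes differed and all 4 were lower in mek-1: nlp-39, nlp-67, nlp-40 and nlp-36. The background was 3.2% of all genes, with 2.58% lower in mek-1. For nlp-39 the mek-1 arrays read 8.24, 7.71 and 6.42 fed and 8.58, 8.62 and 8.60 fasted, and the mlk-1 arrays 9.68 and 10.51 fed and 10.40 and 10.97 fasted. All mlk-1 arrays were above all mek-1 arrays. The mean difference was -2.36 ± 0.33 (adjusted p = 0.00655), or 0.195 times the mlk-1 level, the widest of the 74. It was -2.64 ± 0.46 in fed animals (adjusted p = 0.052) and -2.08 ± 0.46 in fasted ones (adjusted p = 0.0748).

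For nlp-67 the mek-1 arrays read 6.0, 6.14 and 6.20 fed and 5.93, 5.92 and 5.96 fasted, and the mlk-1 arrays 6.45 and 6.53 fed and 6.41 and 6.61 fasted. Again no mek-1 array reached an mlk-1 array, and the fasted mek-1 arrays lay just under the fed ones. The mean difference was -0.47 ± 0.07 (adjusted p = 0.00625), and in fasted animals it was -0.57 ± 0.09 (adjusted p = 0.025). The call in fasted animals was lost without any 1 of the 5 fasted arrays, with adjusted p of 0.0709 to 0.223.

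For nlp-40 and nlp-36 the strain estimates were larger in fasted animals than in the mean, and both were lower in mek-1. The nlp-40 difference was -1.15 ± 0.16 in fasted animals (adjusted p = 0.0156) and -0.70 ± 0.12 in the mean (adjusted p = 0.014). The fasted call was lost without mlk-1 fasted array 1 (adjusted p = 0.125) or array 2 (adjusted p = 0.113), and the mean call without mlk-1 fed array 2, mlk-1 fasted array 1 or mlk-1 fasted array 2, with adjusted p of 0.0532 to 0.0696. For nlp-36 it was -0.46 ± 0.09 in fasted animals (adjusted p = 0.048) and -0.31 ± 0.06 in the mean (adjusted p = 0.0355). Each nlp-36 call was lost without any 1 of 8 arrays, with adjusted p of 0.0740 to 0.280 and of 0.0689 to 0.137. Of the 9 intestine markers, ifb-2 and act-5 were lower in fasted mek-1 than in fasted mlk-1 mutants, a contrast in which 1.57% of all genes differed. None of the 9 separated the strains over all arrays. The part of the markers in the nlp-40 difference was not tested.

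In fasted animals 3 of 74 peptide genes differed between strains, against 1.57% of all genes. That count was 0 without mlk-1 fasted array 1 or mlk-1 fasted array 2, and 1 without any 1 of the mek-1 fasted arrays. In fed animals limma called none, against 0.643% of all genes, with 10 of 74 at an unadjusted p under 0.05 (8.7% of all genes) and 1 call without mek-1 fed array 1 or mek-1 fed array 3. No flp gene passed in these strain comparisons without the block. The nearest in the mean was flp-10 at -0.39 (adjusted p = 0.0716). Strains did not overlap over all arrays for nlp-20, nlp-39, nlp-67 and nlp-101, lower in mek-1, and for nlp-47, a relative of gonadotropin-releasing hormone, and nlp-57, higher in mek-1. These are 8.16% and 4.08% of nlp genes, against 2.26% and 1.03% of all genes.

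The genes that make, release and sense the peptides were counted in the mean fasting effect. The background was 8.23% of all genes, and with the block 12.5% upward and 7.54% downward. Of 11 processing genes aex-5 alone passed the test, with a median of 0.08. The estimates were 0.08 ± 0.18 for egl-3, -0.05 ± 0.17 for egl-21 and 0.22 for sbt-1, which encodes a chaperone of the convertase EGL-3. With the block 3 rose and 1 fell. For aex-5, fed arrays read 7.39, 7.23 and 7.10 in mek-1 and 6.91 and 7.25 in mlk-1, and fasted arrays 6.47, 6.37 and 6.61 in mek-1 and 6.60 and 6.56 in mlk-1. All fasted arrays were under all fed ones, as for 3.56% of all genes.

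Of 11 dense-core vesicle genes ric-19, which acts in vesicle maturation, rose by 0.27 ± 0.07 (adjusted p = 0.0457). That call was lost without any 1 array other than mlk-1 fed array 1. The median was 0.09, unc-31 was at 0.09 ± 0.06, and 3 genes rose with the block, against 12.5% of all genes.

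Of 101 peptide receptor genes frpr-15 alone rose, by 0.38 ± 0.06 (adjusted p = 0.00664), and the median was 0.02. Its fed arrays read 5.47, 5.34 and 5.57 in mek-1 and 5.34 and 5.36 in mlk-1, and its fasted arrays 5.76, 5.72 and 5.81 in mek-1 and 5.80 and 5.82 in mlk-1. All of these lie close to the lowest deposited values, and 45 of the 101 receptors had means under the low-level cutoff. The count was 2 without any 1 of mek-1 fed arrays 1 and 2 and mek-1 fasted array 3. With the block it was 4, all upward, or 3.96%, against 12.5% of all genes upward. None of 5 other neuropeptide genes passed, and pdf-1, which encodes a pigment-dispersing factor peptide, was at -0.17.

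Peptide genes were frequent on the X chromosome, which held 10 of 25 flp genes (40%) and 18 of 49 nlp genes (36.7%), against 13.8% of all genes with a chromosome. Few members neighbour one another in the RefSeq annotation: nlp-9 with nlp-13 on V, and nlp-45, nlp-22, nlp-23 and nlp-2, nlp-90 with nlp-91, and flp-3 with flp-2 on X. The mean fasting effects of neighbours were -0.12 and 0.19 for nlp-9 and nlp-13, and 0.09 and 0.32 for flp-3 and flp-2. They were -0.07, -0.02, 0.03 and 0.24 for nlp-45, nlp-22, nlp-23 and nlp-2, and -0.01 and 0.10 for nlp-90 and nlp-91.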

How the data were processed

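The authors deposited 1 linear intensity per probe set and array, and the values start just above 16. The summary and normalization methods and the scanner software are not given in the sources used here. Intensities were used as log2(value + 16). After 77 control probe sets were left out, 22548 probe sets were fitted in limma 3.58.1 (R 4.3.3; lmFit and eBayes, 6 residual and 2.9 prior degrees of freedom) with 4 groups and 7 contrasts, and p-values were adjusted by Benjamini-Hochberg within each contrast. Probe sets were named by the platform annotation: 20766 have 1 symbol, 887 several and 895 none, and only the first were named. The 2 probe sets shared with another gene (nlp-4, nlp-76) were not used. All 74 symbols are in the RefSeq gene table.

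Deviations from group means of fed and fasted arrays with the same number correlated at 0.440, 0.675 and 0.573 in mek-1 and 0.352 in mlk-1. Numbers were therefore taken as pairs within a strain. With 2 arrays a group, deviations mirror each other, and unlike numbers in mlk-1 correlated at -0.352. There the sign alone tells like from unlike numbers. Between strains 2 numbers are shared, at 0.298 and 0.150 (fed) and 0.326 and 0.157 (fasted). Across food, mek-1 fed and mlk-1 fasted arrays correlated at 0.325 and 0.003, and mek-1 fasted and mlk-1 fed arrays at 0.293 and 0.227. The replicate block gave each number the same effect in both strains, so it was not a pairing within strain alone.

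On simulated data with these spreads, the mean fasting effect recovered 52.2% of changes of 0.5, 95.5% of 1 and 98.5% of 2 on the log2 scale. Of 22548 probe sets, 67, 67 and 66 were changed by these sizes, and 11 unchanged ones were called. The simulated noise was independent between arrays. The real contrast called 1781 probe sets and its arrays were correlated by replicate number, so these shares may not hold for it. The number of arrays limits the precision. Any member could be named; array values are given for members past the threshold, for the 4 largest changes each way and 3 largest strain differences of each family, for a few peptides of known role, and for aex-5 and frpr-15. The members, gene lists and tests were chosen with earlier results of these data known. Figures used matplotlib 3.10.9 under Python 3.11.15. Alternatives were other normalizations, constants, filters, variance models, array weights, probe set rules, replicate blocks and single arrays left out.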

Additional observations from a re-analysis of the deposited data

Results flagged for a closer look

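The mek-1 transcript itself, which is no peptide gene, differed in its fasting effect between the strains: the effect in mek-1 mutants minus that in mlk-1 mutants was -1.03 ± 0.12 (SE, limma, adjusted p = 0.0244). It was -0.77 ± 0.07 in mek-1 mutants and 0.26 ± 0.09 in mlk-1 mutants. None of the 74 peptide genes differed in this test. Groups of 2 or 3 arrays are too small for a test of single outlying arrays.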

How the results depend on the processing

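Of 39 results for named peptide genes, 15 kept their direction and side of the threshold in each of up to 25 alternatives. Called in each one that tested them were nlp-40 (highest adjusted p 0.0343), nlp-36 (0.0460) and nlp-51 (0.0311) in the mean fasting effect, nlp-36 and nlp-40 in mek-1, and nlp-39 and nlp-67 in the mean strain difference. The 3 probe sets of nlp-36, nlp-40 and nlp-51 are absent where _s_at and _x_at designs are left out. Of flp genes called in the mean fasting effect (0 as reported) there was 1 with quantile normalization, median centring, trended and robust variance, no constant, a constant of 1, 1 probe set per gene, means of probe sets or without both mek-1 arrays numbered 3, and 2 with array weights. With the replicate block there were 8, or 9 with the number within strain, a block chosen after seeing the data. For nlp genes (6 as reported) the counts were 10 with weights, 3 without shared designs, 17 and 20 with the blocks. In mek-1 (4) they were 1 without shared designs, 14 and 15 with the blocks. In mlk-1 (0) they were 1 with weights, 8 and 9 with the blocks. The mean strain difference (4) gave 7 with weights, 2 without shared designs and 9 with the replicate block, which shares only 2 numbers between strains. Fed animals (0) gave 1 with quantile normalization, the low filter, weights, no constant, a constant of 1, 1 probe set per gene, means of probe sets or without both arrays numbered 3, and 2 with the replicate block. Fasted animals (3) gave 5 with weights, 1 without shared designs and 6 with the replicate block. That block called flp-10 in the mean (adjusted p = 0.00778) and fed animals (0.0244), flp-8 in fasted animals (0.0345), and nlp-39 in fed (0.0275) and fasted animals (0.0418), none of which passed without it. Leaving out 1 array gave 0 to 1 (flp), 3 to 7 (nlp), 2 to 4 (mek-1), 0 to 1 (mlk-1), 2 to 4 (mean strain), 0 to 1 (fed) and 0 to 4 (fasted). The cause of these shifts was not tested. The mean fasting effect changed sign without 1 array for flp-1 (-0.0711 to 0.298), flp-13 (-0.0351 to 0.143), flp-18 (-0.215 to 0.117) and flp-19 (-0.112 to 0.111), none of them called.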
